A study of Mus musculus with 12 samples.

Results

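The genes described here were grouped as products of the secretory cells of the small intestine: 5 Paneth cell genes (Lyz1, Lyz2, Defa24, Mmp7 and Ang4) and 5 goblet cell genes (Muc2, Tff3, Agr2, Fcgbp and Clca1). Of them, Lyz2 is expressed mainly in macrophages, and Agr2 acts in the endoplasmic reticulum. These 10 genes, of 21896 protein-coding genes in the RefSeq annotation, were given by name, and their chromatin was read from every deposited peak that overlapped the gene span extended by 1 kb on each side. Mouse intestinal organoids, grown from isolated crypts in Matrigel with EGF, Noggin, R-spondin, the GSK3 inhibitor CHIR-99021 and the ROCK inhibitor Y-27632, received AA (arachidonic acid, per the series title) at 25 µM or vehicle for 6 days. CUT&RUN, a method that sequences the DNA fragments cut free by an antibody-tethered nuclease, was performed for 3 histone marks, H3K4me3, H3K27ac and H3K27me3, with 2 AA and 2 vehicle libraries for each mark (12 libraries in all). No genotype is given in the sample labels, but the series text mentions Ptger KO organoids and an arm with a prostaglandin analogue; the genotype of these 12 libraries is therefore not settled, and no prostaglandin library was analysed here. Whether replicate libraries derive from different cultures or mice is not stated, so p-values measure only the spread between libraries, which may be technical.

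Paneth cells sit at the crypt base, where their granules release antimicrobial proteins and where they supply niche signals to neighbouring stem cells. Goblet cells build the mucus gel: the mucin Muc2 forms its polymer, Fcgbp and Clca1 are mucus proteins secreted with it, Tff3 is a trefoil peptide of mucosal repair, and Agr2 is a disulphide isomerase of the endoplasmic reticulum needed to fold Muc2. H3K4me3 marks the starts of active or poised genes, H3K27ac marks active promoters and enhancers, and H3K27me3 is laid down by Polycomb repressive complex 2 over silenced or developmentally restricted genes.

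The deposited value is a score for each peak and library, and on testing it behaved as the mean read coverage per base of the peak multiplied by 1 factor per library, so that scores can be compared between genes per length but only within a mark. Divided by that factor, the median raw coverage of a SEACR peak was shallow in every library. For H3K4me3 it was 1.37 and 1.46 reads per base in the AA libraries and 3.38 and 2.35 in the vehicle libraries, so the AA libraries of that mark were the shallower ones. It was 2.28 and 2.76 (AA) and 1.95 and 2.45 (vehicle) for H3K27ac, and 1.19 and 1.60 (AA) and 1.85 and 1.29 (vehicle) for H3K27me3. The tissue was set beside cell type markers: 7 of 7 epithelial genes, among them Epcam and Cdh1, had an H3K4me3 and an H3K27ac peak, while 6 of 8 macrophage and blood genes had H3K4me3 and 6 of 8 had H3K27ac. For fibroblast genes these numbers were 5 and 2 of 6, and for endothelial genes 3 and 2 of 4. Of all genes, 73.1% had an H3K4me3 and 63.5% an H3K27ac peak, so such counts cannot show which cells were present. Peaks are listed for all 4 libraries of a mark together, so these counts say nothing of any single library's label. In a bulk library a lower score cannot be told apart from fewer cells of the type that carries the mark.

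The sequences directly before the starts of 4 genes are shown because their chromatin carries the results below: the Lyz1 and Lyz2 pair, which are neighbouring copies on chromosome 10 with different marks, Muc2, whose start carried both H3K4me3 and H3K27me3, and Agr2, which had the highest H3K4me3 of the 10 genes. All are 250 bases from RefSeq on build GRCm38.p6, written 5′ to 3′ on the gene's strand and ending at the base before the annotated start. In Lyz1 (chr10:117292869-117293118, minus strand) and Lyz2 (chr10:117282273-117282522, minus strand) capitals mark the longest run that both share, 50 bases ending at the start. In Muc2 (chr7:141690090-141690339, plus strand) capitals mark the motif TATAAA, which begins 174 bases before the start, and the motif CAGCTG, which begins 112 bases before it. Agr2 (chr12:35992675-35992924, plus strand) holds neither motif.
Lyz1: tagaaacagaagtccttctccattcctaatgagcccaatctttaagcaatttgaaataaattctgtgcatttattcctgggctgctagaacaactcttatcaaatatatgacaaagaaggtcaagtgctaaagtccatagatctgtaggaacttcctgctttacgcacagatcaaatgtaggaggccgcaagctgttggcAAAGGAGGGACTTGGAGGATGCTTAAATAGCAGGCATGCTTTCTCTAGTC
Lyz2: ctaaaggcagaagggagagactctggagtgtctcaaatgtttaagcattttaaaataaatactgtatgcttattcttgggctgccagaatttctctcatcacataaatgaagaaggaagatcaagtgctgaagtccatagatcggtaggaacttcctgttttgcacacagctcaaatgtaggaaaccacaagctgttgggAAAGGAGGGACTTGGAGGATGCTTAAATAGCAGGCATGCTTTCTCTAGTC
Muc2: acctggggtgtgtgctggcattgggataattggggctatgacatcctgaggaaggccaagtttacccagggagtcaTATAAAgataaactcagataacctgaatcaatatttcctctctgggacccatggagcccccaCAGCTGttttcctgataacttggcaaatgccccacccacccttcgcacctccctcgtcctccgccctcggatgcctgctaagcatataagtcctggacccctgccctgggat
Agr2: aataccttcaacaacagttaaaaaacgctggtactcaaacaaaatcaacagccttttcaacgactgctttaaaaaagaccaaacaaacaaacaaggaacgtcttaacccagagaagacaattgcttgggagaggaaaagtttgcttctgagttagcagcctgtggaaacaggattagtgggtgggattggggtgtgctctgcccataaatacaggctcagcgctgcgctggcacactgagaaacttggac

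The Lyz1 and Lyz2 windows were identical at 200 of 248 aligned positions (80.6%), with 4 gaps. How reads that match both copies were handled is not given in the sources used here, so values at the pair, and at Defa24 in its cluster of near-identical alpha-defensin genes, are uncertain to that extent. The table of sequences held 7 of the 10 genes (not Defa24, Tff3 and Clca1). The 250 bases before the first listed start of these 7 genes held 0 to 5 CpG, below the median of 10 over 17491 promoters. A second, downstream start of Mmp7 had 7 CpG before it. TATAAA, the core of the TATA box, was found on either strand before Mmp7 and Muc2, and in 12.4% of all promoters. CAGCTG, an E-box, which does not overlap TATAAA, was found before Muc2 and Fcgbp, and in 11.6% of all promoters. These matches describe letters in a window and show no binding.

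The 3 marks were spread unevenly over the 10 genes. With SEACR peaks, 7 genes had H3K4me3 (all but Lyz2, Ang4 and Clca1), set against 73.1% of all genes with an H3K4me3 peak. H3K27ac peaks lay at 4 genes (Mmp7, Agr2, Fcgbp and Clca1; 63.5% of all genes had one), and H3K27me3 peaks at 7 genes (all but Lyz1, Mmp7 and Agr2; 49.9% of all genes had one). Agr2 and Mmp7 carried H3K4me3 and H3K27ac without H3K27me3, whereas Lyz2 and Ang4 carried H3K27me3 alone. Lyz1 carried H3K4me3 alone, and Defa24, Muc2 and Tff3 carried H3K4me3 and H3K27me3. Fcgbp had all 3 marks. Clca1 had H3K27me3, and H3K27ac that lay outside its span but within the 1 kb extension. A missing peak means that the caller listed none there, not that the mark was absent.

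**Figure D1:**
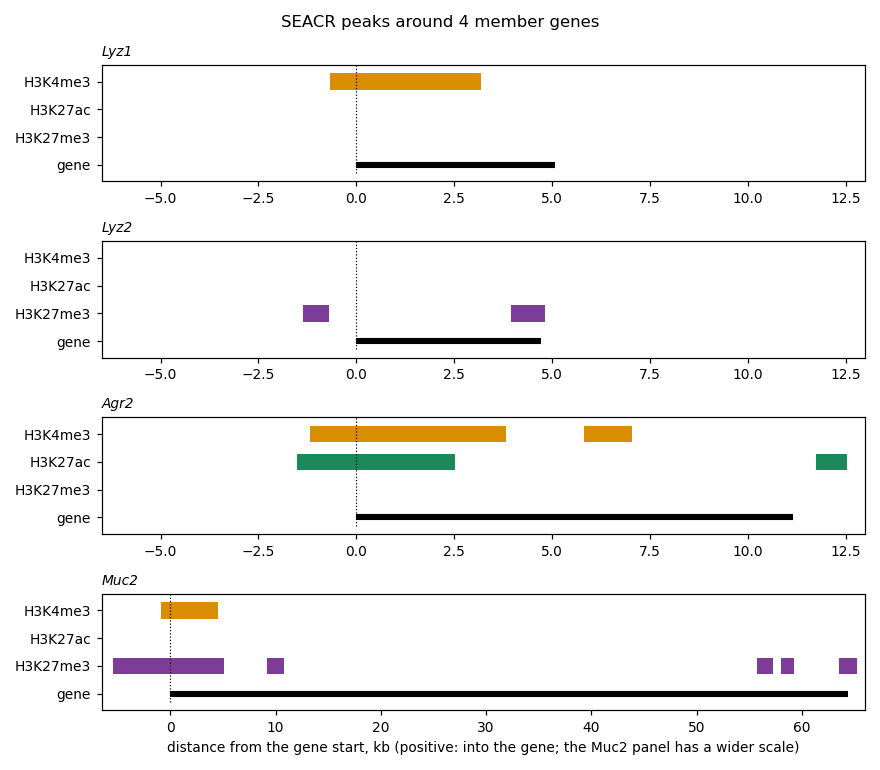
SEACR peaks of the 3 marks (coloured bars, 1 row per mark) and the annotated gene span (black bar) at Lyz1, Lyz2, Agr2 and Muc2, by distance from the gene start in kb along the gene's strand; the Muc2 panel has a wider scale. Muc2 carries the longest domain, an H3K27me3 peak of 10465 bp that contains its H3K4me3 peak, and at Lyz2 the called H3K27me3 peak lies 702 bp before the start.

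At several genes the marks fell on the same bases, although each mark was read in its own libraries and the overlap does not show them on the same chromosomes or in the same cells. The H3K4me3 peak over the Muc2 start (chr7:141689430-141694840) lay wholly (100%) inside an H3K27me3 peak of 10465 bp (chr7:141684946-141695410). That H3K27me3 peak was longer than 99.1% of all peaks of its mark, and its score stood at percentile 95.5. An H3K27me3 peak of Tff3 lay wholly inside its H3K4me3 peak, and 90.4% of the second H3K27me3 peak of Defa24 (chr8:21735062-21736653) was covered by its H3K4me3 peak. These overlaps rest on SEACR alone, as MACS2 listed neither H3K4me3 nor H3K27me3 peaks at Muc2, Tff3 or Defa24. Of all genes, 64.3% had a MACS2 peak of H3K4me3 and 4.76% of H3K27me3. At Agr2 the overlap was of the active marks: 92.1% of the H3K27ac peak over the start (chr12:35991417-35995451) was covered by H3K4me3. At Fcgbp the H3K27ac peak (chr7:28069343-28072073) lay wholly inside the H3K4me3 peak over the start.

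As 1 value per gene, the length-weighted mean score of its peaks, all 7 genes with H3K4me3 were in the lower part of the range of all genes with this mark. Agr2 stood highest, at percentile 28.9, and was the highest of the 7 in each of the 4 libraries. Below it came Fcgbp (percentile 18.3), Tff3 (18.0), Mmp7 (16.0), Lyz1 (13.6), Muc2 (11.4) and Defa24 (6.62); among these 6, neighbours in the order had overlapping ranges over their 4 libraries. For H3K27ac the order was Agr2 (percentile 72.0), Clca1 (62.1), Fcgbp (51.7) and Mmp7 (5.37), again with overlapping ranges between neighbours. For H3K27me3, Defa24 (79.5), Lyz2 (78.7) and Muc2 (78.0) led, followed by Fcgbp (54.9), Ang4 (39.9), Tff3 (31.2) and Clca1 (1.48). In that order the libraries of Muc2 did not overlap those of Fcgbp, nor those of Tff3 the libraries of Clca1, while the other neighbours overlapped.

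**Figure D2:**
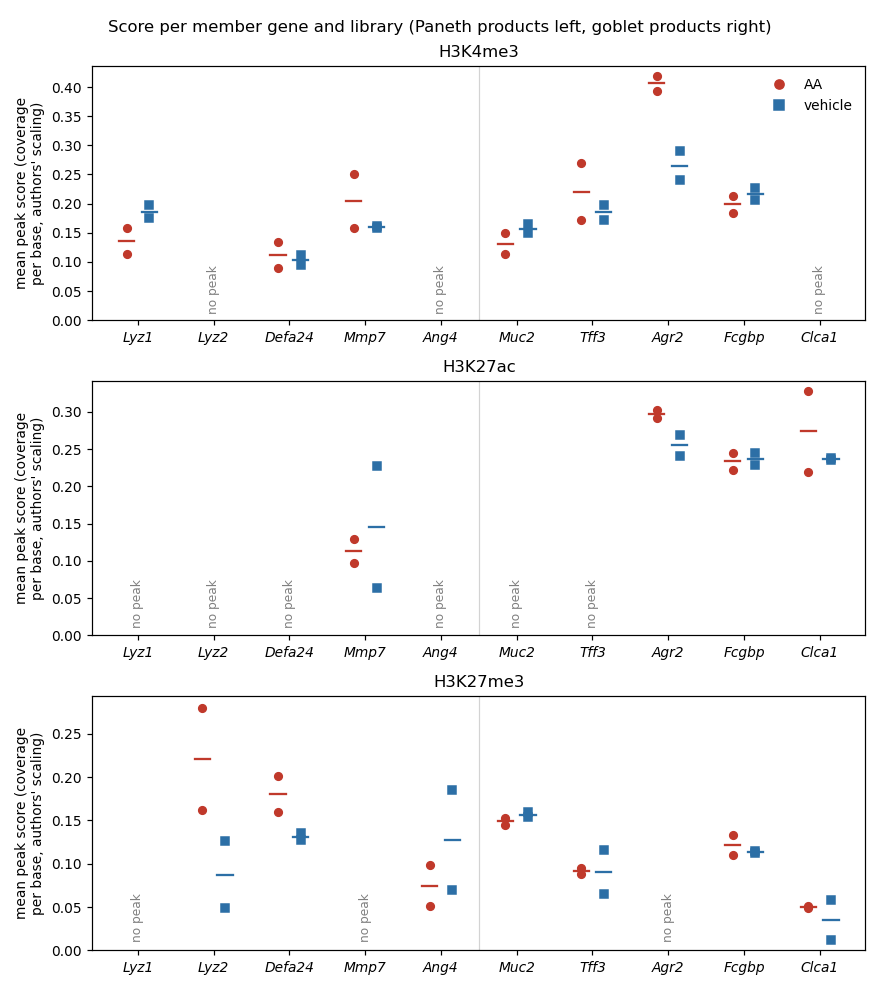
Gene-level score (mean coverage per base, scaled by the authors; vertical axis) of each gene with a SEACR peak, 1 panel per mark, with AA libraries (circles) to the left of vehicle libraries (squares), 1 point per library and a short line at each mean. Agr2 has the highest H3K4me3 of the 7 genes in all 4 libraries, and its AA points lie above its vehicle points.

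AA against vehicle was tested with limma on the log2 scores of all peaks of a mark, with Benjamini-Hochberg adjustment over all of them and a threshold of 0.05; with 2 libraries against 2, an exact permutation test could not go below p = 0.333 for a single value. Of the 36 SEACR peaks at the 10 genes, 1 passed: an H3K27me3 peak before Lyz2, higher with AA. None of the 13 H3K4me3 peaks passed (2.92% of all H3K4me3 peaks did), none of the 5 H3K27ac peaks (0.2% of all), and 1 of the 18 H3K27me3 peaks (0.545% of all; 0.498% were higher and 0.0475% lower with AA). Sets of 5 to 18 peaks are too small to set their call counts apart from such shares. At an unadjusted p under 0.05 there were 2, 0 and 1 such peaks for H3K4me3, H3K27ac and H3K27me3, where 16.2%, 7.71% and 9.39% of all peaks of these marks were.

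Lysozyme 2 (Lyz2) is the copy expressed mainly in macrophages, and lysozyme 1 (Lyz1) the copy of Paneth cells; both cleave the peptidoglycan of bacterial walls. The H3K27me3 peak before Lyz2 (chr10:117282974-117283639, 666 bp) was short, at percentile 2.83 of length among all peaks of its mark. This peak began 702 bp and ended 1367 bp upstream of the start, beyond the sequence printed above. It scored 0.219 and 0.346 in the AA libraries and 0.117 and 0.0491 in the vehicle libraries, and both AA libraries stood above both vehicle libraries. The change was 1.48 ± 0.31 (SE) on the log2 scale, with a limma adjusted p of 0.00551. The raw coverage behind these scores was 2.32 and 4.52 reads per base with AA, and 2.01 and 0.607 with vehicle, so AA replicate 1 and vehicle replicate 1 were close before scaling.

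The call at Lyz2 differed between scalings. With each library centred on its median the change was 1.37 and the limma adjusted p was 0.14, whereas with quantile normalization it passed (1.35, limma adjusted p = 0.0372). Without AA replicate 1, AA replicate 2, vehicle replicate 1 or vehicle replicate 2 the changes were 1.78, 1.19, 1.92 and 1.05, all upward. Each of these fits sets 2 libraries against 1, so the loss of the call in them cannot be told apart from lost power. The second H3K27me3 peak of Lyz2, at the far end of the gene (chr10:117277443-117278310), scored 0.119 and 0.229 with AA and 0.133 and 0.0487 with vehicle. Its groups overlapped (0.78 ± 0.45, limma adjusted p = 0.618). The gene-level H3K27me3 mean of Lyz2 was 0.221 ± 0.0834 in AA libraries and 0.0873 ± 0.0545 in vehicle libraries (SD, n = 2 each) and did not pass (1.14 ± 0.37, limma adjusted p = 0.186). Markers of macrophages and blood cells were set beside it: 4 of 8 had an H3K27me3 peak (49.9% of all genes had one), and Ptprc, Cd68, Cx3cr1 and Cd14 had none. The summed score of the 4 measured genes was 0.485 and 0.578 with AA and 0.404 and 0.427 with vehicle. None of them was called, where 0.677% of all genes were. Whether such cells had a part in the Lyz2 value was not tested.

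At Lyz1 the data held H3K4me3 alone. Its peak over the start (chr10:117289681-117293541, 3861 bp) scored 0.158 and 0.114 in AA libraries and 0.198 and 0.175 in vehicle libraries. Both AA values were below both vehicle values, but the difference did not pass (-0.40 ± 0.42, limma adjusted p = 0.655). Of all H3K4me3 peaks, 30.5% had AA below vehicle without overlap. The narrower MACS2 peak at Lyz1 scored 0.364 and 0.136 with AA and 0.489 and 0.46 with vehicle (-0.68, limma adjusted p = 0.341).

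Mmp7 encodes matrilysin, the metalloproteinase that cleaves alpha-defensin precursors in mouse Paneth cells. Its H3K4me3 peak over the start (chr9:7691550-7692882) scored 0.113 and 0.209 with AA and 0.189 and 0.147 with vehicle, and these groups overlapped (-0.09, limma adjusted p = 0.923). A second, short peak 1197 bp downstream of the start (chr9:7693287-7693993) scored 0.243 and 0.329 with AA and 0.101 and 0.189 with vehicle, without overlap. Its difference was 0.91 ± 0.36 with a limma adjusted p of 0.152; it passed, upward, with centred libraries (1.12, limma adjusted p = 0.0243), with quantile normalization (1.26, 0.0203) and without AA replicate 1 (1.11, 0.0158). The H3K27ac peak that covers this second peak (chr9:7692594-7694150) scored 0.0972 and 0.13 with AA and 0.227 and 0.0635 with vehicle. The lowest and the highest value both came from vehicle libraries (-0.12 ± 0.44, limma adjusted p = 0.946).

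Defa24 encodes an alpha-defensin, a peptide that Paneth cells secrete to kill bacteria. Its H3K4me3 peak, which spans the whole gene (chr8:21733598-21736500), scored 0.0888 and 0.135 with AA and 0.0941 and 0.112 with vehicle, with the vehicle values inside the AA range (0.08 ± 0.59, limma adjusted p = 0.953). Of its H3K27me3 peaks, the first (chr8:21729607-21734353) ended 141 bp outside the gene and scored 0.199 and 0.162 with AA and 0.137 and 0.133 with vehicle. The second scored 0.208 and 0.154 with AA and 0.131 and 0.111 with vehicle. Both AA values were above both vehicle values at each peak, as at 26.3% of all H3K27me3 peaks, and neither difference passed (0.34 ± 0.29 and 0.47 ± 0.32, limma adjusted p = 0.756 and 0.688). The gene-level H3K27me3 difference at Defa24 was 0.38 ± 0.14, with a limma adjusted p of 0.215.

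Ang4, an antimicrobial ribonuclease of the angiogenin family, had a single H3K27me3 peak inside the gene (chr14:51768178-51769369). It scored 0.0984 and 0.0511 with AA and 0.0695 and 0.186 with vehicle. The groups overlapped (-0.51 ± 0.60, limma adjusted p = 0.836).

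Among the goblet cell genes, Agr2 came nearest to a called difference. Its H3K4me3 peak over the start (chr12:35991734-35996761, 5028 bp) stood at percentile 79.0 of all H3K4me3 peaks. It scored 0.517 and 0.452 in AA libraries and 0.355 and 0.281 in vehicle libraries, without overlap. The difference was 0.58 ± 0.25, with a limma adjusted p of 0.205. It passed, upward, with centred libraries (0.79, limma adjusted p = 0.0217), with quantile normalization (0.64, 0.0364) and without AA replicate 2 (0.67, 0.0137). Before scaling the order differed: raw coverage was 4.75 and 4.45 reads per base with AA and 6.9 and 3.69 with vehicle.

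The gene-level H3K4me3 of Agr2 was 0.406 ± 0.019 in AA libraries and 0.265 ± 0.0353 in vehicle libraries (SD, n = 2 each), a difference of 0.49 ± 0.18 with a limma adjusted p of 0.0535. It passed with quantile normalization (limma adjusted p = 0.0352) and with the replicate block. It did not pass with centred libraries, with MACS2 peaks (limma adjusted p = 0.111) or without trend and robust fitting. The MACS2 peak at the Agr2 start scored 1.02 and 1.13 with AA and 0.856 and 0.698 with vehicle (0.40, limma adjusted p = 0.325). The H3K27ac peak over the start scored 0.31 and 0.298 with AA and 0.274 and 0.219 with vehicle, also without overlap (0.25 ± 0.20, limma adjusted p = 0.792). A second H3K27ac peak, 599 bp past the gene (chr12:36004680-36005467), scored 0.262 and 0.262 with AA and 0.244 and 0.354 with vehicle, with overlapping groups.

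At Muc2 the values of the groups lay close together. The H3K4me3 peak over the start scored 0.149 and 0.113 with AA and 0.149 and 0.165 with vehicle (-0.23 ± 0.46, limma adjusted p = 0.817). The H3K27me3 domain around it scored 0.178 and 0.183 with AA and 0.181 and 0.198 with vehicle (-0.06 ± 0.22, limma adjusted p = 0.954), the smallest SE of any H3K27me3 peak described here. Another 4 H3K27me3 peaks in the gene body differed by -0.68 to 0.39, and none passed.

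At Tff3 the peak over most of the gene (H3K4me3, chr17:31126264-31130033) scored 0.268 and 0.198 with AA and 0.176 and 0.189 with vehicle. The groups did not overlap, as at 18.3% of H3K4me3 peaks with AA above, and the difference did not pass (0.30 ± 0.36, limma adjusted p = 0.692). A further H3K4me3 peak 894 bp outside the gene scored 0.275 and 0.0998 with AA and 0.164 and 0.224 with vehicle, so the AA libraries held both extremes. Neither H3K27me3 peak of Tff3 passed (-0.07 ± 0.59 and 0.15 ± 0.63, limma adjusted p = 0.983 and 0.962), and both SEs were larger than the changes.

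Fcgbp had an H3K4me3 peak over its start (chr7:28069291-28074174) that scored 0.259 and 0.232 with AA and 0.232 and 0.274 with vehicle (-0.03 ± 0.32, limma adjusted p = 0.965). Its H3K27ac peak scored 0.222 and 0.245 with AA and 0.228 and 0.245 with vehicle (-0.01, limma adjusted p = 0.99). In the gene body, an H3K4me3 peak (chr7:28104404-28105723) scored 0.241 and 0.144 with AA and 0.27 and 0.302 with vehicle, without overlap. That difference was -0.55 ± 0.33 (limma adjusted p = 0.413), and it passed, downward, only without AA replicate 1 among the settings tried (-0.88, limma adjusted p = 0.024). The 5 H3K27me3 peaks in the Fcgbp body differed by -0.59 to 0.69, and none passed.

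Clca1 had an H3K27ac peak 47 bp outside the gene (chr3:145000080-145004490), beyond its lower-coordinate end. As no start was listed for Clca1, it is not known whether that end is the start. The peak scored 0.328 and 0.22 with AA and 0.238 and 0.235 with vehicle (0.15 ± 0.21, limma adjusted p = 0.868). The H3K27me3 peak of Clca1 was among the weakest of that mark, at percentile 0.880. It scored 0.0516 and 0.0492 with AA and 0.0578 and 0.0121 with vehicle (0.38 ± 0.68, limma adjusted p = 0.898).

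**Figure D3:**
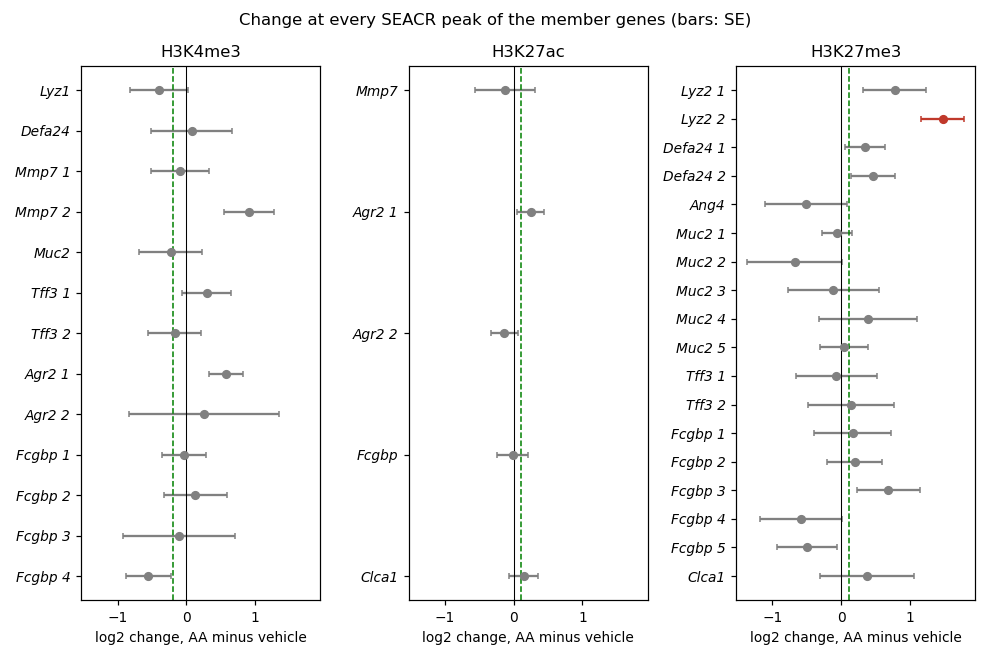
Change with AA against vehicle (log2 of score plus pseudocount, horizontal axis) with its SE for every SEACR peak at the 10 genes, by mark, with peaks of a gene numbered along the chromosome and a dashed line at the median of all peaks of the mark. The peak that passed, H3K27me3 before Lyz2, is at 1.48, and the H3K4me3 peaks range between -0.55 and 0.91.

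Over the peaks of the 10 genes the median difference was -0.03 for H3K4me3, where that of all peaks was -0.19 (0.02 with centred libraries, so these medians depend on the scaling). For H3K27ac the medians were -0.01 at the 10 genes and 0.11 over all peaks, and for H3K27me3 they were 0.16 and 0.12. Of the 13 H3K4me3 peaks, 3 had AA above vehicle without overlap (18.3% of all H3K4me3 peaks), 2 had AA below (30.5% of all), and 8 overlapped. Of the 5 H3K27ac peaks, 1 had AA above (28.5% of all) and 0 had AA below (10.7% of all), and of the 18 H3K27me3 peaks 4 had AA above (26.3% of all) and 3 had AA below (13.4% of all). As 1 value per gene, 0 of 7 genes passed for H3K4me3 (11.2% of all genes did), 0 of 4 for H3K27ac (0% of all genes) and 0 of 7 for H3K27me3 (0.677% of all genes), with 1, 0 and 2 genes at an unadjusted p under 0.05 in limma (30%, 13.3% and 19.3% of all genes). MACS2 listed 5 H3K4me3 peaks at 4 of the genes and 1 H3K27ac peak (at Agr2), and none passed (6.30% and 0% of all MACS2 peaks of these marks did); it listed no H3K27me3 peak there. The share of higher against lower calls among all features depended on the scaling. For H3K4me3 peaks, 904 were higher and 806 lower with the deposited scaling, 5557 and 549 with centred libraries, and 980 and 1388 with quantile normalization. For H3K4me3 genes the counts were 1363 higher and 431 lower as deposited, 1103 and 1160 centred, and 240 and 489 after quantile normalization.

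Other genes of the same cells were taken from lists, of 30 further Paneth cell genes, 30 further goblet cell genes, 18 transcription factors and Notch pathway genes of the secretory lineage, and 20 genes of protein folding and export. For H3K4me3, 3 of the 26 goblet genes with a peak were higher with AA, 1 was lower and 22 did not pass; 8.52% of all genes were higher and 2.69% lower. Among the 16 Paneth genes with a peak, 2 were lower and none was higher. Of the 18 factors 1 was higher, and of the 20 folding and export genes 2 were higher, with none lower in either list. The counts differed between settings. With centred libraries, 2 goblet genes, 0 Paneth genes, 1 factor and 1 folding gene were higher and 3, 3, 1 and 1 were lower. With quantile normalization, 2, 0, 0 and 0 were higher and 2, 1, 0 and 1 lower. With MACS2 peaks, where 28.8% of all genes were called and 26.8% were higher, 4, 0, 3 and 9 were higher and 1, 1, 0 and 0 lower. Without AA replicate 2, 49.7% of all genes were called, with 5 goblet genes, 2 Paneth genes, 7 factors and 13 folding genes higher and 2, 4, 0 and 0 lower. Without AA replicate 1 (20.4% of all genes called), 3, 0, 2 and 2 were higher and 2, 3, 1 and 0 lower. Without vehicle replicate 1 or 2 almost no gene of any kind passed, so the lists could not be compared there. The median differences were -0.15 for the Paneth list, -0.04 for the goblet list, 0.09 for the factors and 0.22 for the folding and export genes, against 0.14 for all genes. With centred libraries that median of all genes was 0.01, and the factor list's median became -0.04. With quantile normalization the goblet list's median became 0.05 and that of the factors -0.04.

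The highest change among these lists was at Ern2, the IRE1 beta sensor of endoplasmic reticulum stress found mainly in mucus-producing epithelium. Its gene-level H3K4me3 was 0.653 and 0.480 with AA and 0.122 and 0.142 with vehicle, with no overlap. The change was 1.58 ± 0.19 (limma adjusted p = 1.93e-13), and it passed in each of 12 alternatives, with changes of 1.02 to 1.89. It came from a peak at chr7:122184269-122186676 that scored 0.855 and 0.578 with AA and 0.135 and 0.174 with vehicle. At Ern2 the H3K27ac difference was 0.09 (limma adjusted p = 0.8), and no H3K27me3 peak was listed.

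Sytl2, a Rab27-binding protein of granule release, was also higher, with an H3K4me3 of 0.504 and 0.437 with AA and 0.256 and 0.258 with vehicle (0.70 ± 0.18, limma adjusted p = 0.00393). Muc4, a membrane-bound mucin, was lower, at 0.321 and 0.269 with AA and 0.529 and 0.537 with vehicle (-0.71 ± 0.17, limma adjusted p = 0.00176). Nupr1, a stress-induced nuclear protein, was the stronger of the lower Paneth-list genes, with 0.120 and 0.104 against 0.324 and 0.353 in vehicle libraries (-1.11 ± 0.23, limma adjusted p = 0.000156). Foxa1, a forkhead factor that acts in secretory differentiation, scored 1.94 and 1.84 with AA and 1.32 and 1.27 with vehicle (0.52 ± 0.11, limma adjusted p = 0.000245). Its peak also overlaps the neighbouring Ttc6, and the call was lost with quantile normalization (limma adjusted p = 0.0922). Without vehicle replicate 1 or 2, only 0.144% and 0.150% of all genes were called, and Sytl2 (limma adjusted p = 0.723 and 0.892), Muc4 (0.722 and 0.892), Nupr1 (0.437 and 0.892) and Foxa1 (0.471 and 0.892) no longer passed, all with the same sign. The calls of Sytl2, Muc4 (limma adjusted p = 0.0678 each) and Foxa1 (0.13) were also lost without trend and robust fitting.

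The remaining calls of these lists were nearer to the threshold. Rep15, a Rab15 effector, was higher by 0.90 (limma adjusted p = 0.0299; its peak also overlaps Ppfibp1), and Pnliprp2, a lipase-related protein, was lower (-0.63, limma adjusted p = 0.0385). Sec61b, a subunit of the translocon, differed by 0.39 (limma adjusted p = 0.0346), and Atf6, a sensor of unfolded proteins, by 0.38 (limma adjusted p = 0.0476). All 4 lost their calls with quantile normalization, and also when either vehicle library was left out, where almost no gene of any kind passed. Leaving out AA replicate 2 also ended the call of Rep15 (0.64, limma adjusted p = 0.224), and leaving out AA replicate 1 those of Pnliprp2 (-0.34, limma adjusted p = 0.151) and Atf6 (0.18, limma adjusted p = 0.145). Centred libraries ended the calls of Rep15 (limma adjusted p = 0.16), Pnliprp2 (0.0668) and Atf6 (0.0662). Of 9 further alpha-defensin genes in the Paneth list, 1 (Defa30) had an H3K4me3 peak, none had H3K27ac and 1 (Defa17) had H3K27me3.

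Neither H3K27ac nor H3K27me3 gave a call in these 4 lists. For H3K27ac, where limma called no gene of any kind, 14 Paneth, 21 goblet, 15 factor and 20 folding genes had a peak, and 1, 0, 0 and 4 of them had an unadjusted p under 0.05 (13.3% of all genes). For H3K27me3 the numbers with a peak were 13, 24, 12 and 9, with 2, 5, 4 and 0 at an unadjusted p under 0.05 (19.3% of all genes). The median H3K27me3 difference was 0.31 for the factors and -0.14 for the goblet list, against 0.12 for all genes. Atoh1, the factor that commits cells to the secretory lineage, differed by 0.41 in H3K27me3 (limma adjusted p = 0.0804), and Spdef, which matures goblet and Paneth cells, by 0.19 in H3K4me3 (limma adjusted p = 0.549).

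**Figure D4:**
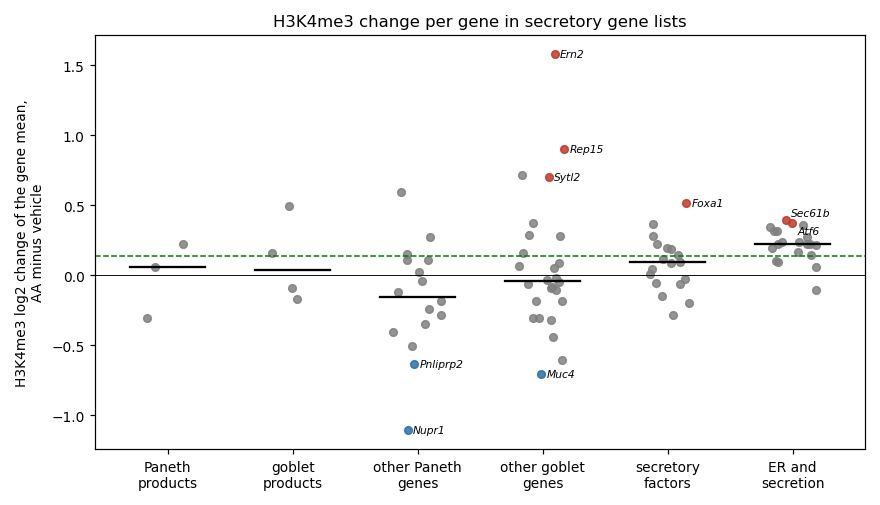
Gene-level H3K4me3 change with AA against vehicle (log2 scale) for the product genes and the 4 lists of related genes, 1 point per gene, with genes that passed the test coloured and named, a short line at each list's median and a dashed line at the median of all genes. Ern2 stands apart at 1.58, and no product gene passed.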

How the data were processed

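The 12 CUT&RUN libraries (3 marks, 2 AA and 2 vehicle libraries each) were used as a table of signal scores per peak and library deposited by the authors. Peaks came from SEACR and MACS2 on mm10, per the submitters' processing notes; the sources used here give no version, aligner or scaling. Multiplied by peak length, at least 99.99% of the scores under 1000 steps fell within 0.1 step of a whole number of steps, with 1 step size for each library. Rows named as control were taken as vehicle. SEACR peaks were the main set. Scores were tested with limma 3.58.1 in R 4.3.3 (trend, robust) on log2(score + 5th percentile of the mark: 0.0253 for H3K4me3, 0.0694 for H3K27ac and 0.0329 for H3K27me3 peaks; 0.0833, 0.111 and 0.0305 for genes), which understates changes of weak peaks. The test was tried on simulated data. Spans, starts and promoter sequences came from RefSeq (GRCm38.p6). Named were the product genes, their strongest, start-covering and called peaks, and up to 4 called genes per list. Members and lists were chosen with earlier results of these data known. Cell markers covered epithelium, macrophages and blood, fibroblasts, endothelium, enterocytes, tuft and enteroendocrine cells. Alternatives changed the scaling, pseudocount, filter, variance model, threshold, peak set, span, replicates and block.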

Additional observations from a re-analysis of the deposited data

How the results depend on the processing

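Depth is a limit: the raw coverage behind member peaks was 0.113 to 6.90 reads per base for H3K4me3 and 0.149 to 4.52 for H3K27me3. Of 13 H3K4me3 peaks at the product genes, 0 were called as deposited, 2 (Agr2 and Mmp7) with centred libraries, and 2 (the same peaks) with quantile normalization. Of all 58548 H3K4me3 peaks, 5557 were higher and 549 lower with centred libraries, and 980 and 1388 with quantile normalization. Without AA replicate 1 the changes were 1.11 at the Mmp7 peak and -0.88 at the Fcgbp body peak. Of 7 genes with H3K4me3, 0 were called as deposited (11.2% of all genes were) and 1 (Agr2) with quantile normalization. The counts over all genes also differed between these scalings, as given above. Of 18 H3K27me3 peaks, 1 (Lyz2) was called as deposited and 0 with the unextended span, which leaves that peak out. None was called with centred libraries or without trend and robust fitting (limma adjusted p = 0.706 at the Lyz2 peak). Fits without 1 library set 2 libraries against 1, so lost calls there cannot be told apart from lost power. The cause of these differences was not tested. H3K27ac counts stayed at 0 in all settings run. Same-numbered replicates did not deviate together (correlations of -0.00228, 0.00853 and 0.00247 for H3K4me3, H3K27ac and H3K27me3). At this shallow depth such correlations cannot show whether the numbers pair samples. With the replicate block, H3K4me3 called 0 peaks and 1 gene (Agr2), and H3K27me3 called 1 peak. With that block, 6 of 20 folding and export genes were higher in H3K4me3 (15.9% of all genes). No MACS2 peak gave H3K27me3 values, and the upper-half filter left no product gene for H3K4me3. Over 51 single peaks and genes there were 604 alternatives. Of these, 490 kept direction and status, which counts results called in neither fit as kept. Another 63 lost the call, 10 gained it, and 41 values below the threshold changed sign. The stricter threshold, the variance model and the block leave the change itself as it was, so direction could not differ there.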

Other observations

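Markers of other cell types in the organoids were read from the same H3K4me3 table, in which 8.52% of all genes were higher with AA, 2.69% were lower, and the median difference was 0.14 on the log2 scale. Among 5 of 6 enterocyte genes with a peak none passed (median difference -0.23), but 3 were lower with centred libraries and 1 with quantile normalization. Among 3 of 4 tuft cell genes with a peak none passed (-0.33), and 1 was lower with centred libraries. No H3K4me3 peak was listed at any of 4 enteroendocrine genes. Epcam, an adhesion protein of epithelium, was the only called gene of 7 epithelial markers and was higher (0.37, limma adjusted p = 0.0461). With centred libraries and with quantile normalization 0 of the 7 passed. With MACS2 peaks 4 were higher, where 26.8% of all genes were. Cd14, a co-receptor for lipopolysaccharide, was the only called gene of 6 measured macrophage and blood markers (0.56, limma adjusted p = 0.00143), while Ptprc and Csf1r had no H3K4me3 peak; 1 gene of that list was also higher under both other scalings. Pdgfra was lower among 5 measured fibroblast markers (-0.71, limma adjusted p = 0.00509), where 2 were lower with centred libraries and 1 with quantile normalization. Kdr was lower among 3 measured endothelial markers (-0.70, limma adjusted p = 0.0378), where 1 was lower with centred libraries and 0 with quantile normalization. With either vehicle library left out almost no gene of any kind passed, so those fits cannot weigh single calls. With centred libraries more of all genes were lower than as deposited, as counted above. Without AA replicate 1 and 2, the median differences were -0.29 and -0.14 for enterocyte genes and -0.38 and -0.18 for tuft cell genes. They were 0.05 and 0.28 for epithelial and -0.08 and 0.04 for macrophage and blood genes. For fibroblast genes they were -0.41 and -0.45, for endothelial genes -0.45 and 0.02, and for all genes 0.04 and 0.23.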
